A study of Mus musculus with 8 samples.

Results

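Id1, Id2, Id3, Id4, Bmp4, Bmpr1a, Smad6, Bambi, and Msx2, the BMP-SMAD1/5 genes studied here, were followed in mouse ESCs for 32 hr after the removal of serum. They were picked as ID genes and other components and targets of BMP signaling that serum BMP is thought to maintain, and are the 9 of 37263 Ensembl identifiers in the count tables that carry these symbols in GENCODE M21. All 9 passed the filter on low counts, alongside 14931 genes in all. The E14 cells (129/Ola) had been kept in serum (15% FCS with LIF) and were moved at time 0 to serum-free 2i, which holds LIF, the MEK inhibitor PD0325901, and the GSK3 inhibitor CHIR99021 (given as 1 and 3 mM in the labels and in µM in the methods). One set of cultures had 2i alone and the other had 17 µM vitC added. RNA was collected at 4, 16, 24, and 32 hr, with 1 ribosomal RNA-depleted library for each of the 8 combinations. No library from serum was analysed here, so nothing is known of the first 4 hr, and every cell compared had lost serum and gained both inhibitors at once, which cannot be told apart.

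BMP ligands bind paired type I and type II receptor kinases, which phosphorylate SMAD1 and SMAD5. These join SMAD4 and enter the nucleus, where the ID genes are among the best known direct targets. ID proteins lack a DNA-binding region and hold E proteins, a class of helix-loop-helix factors, in inactive pairs. In serum-grown ESCs, BMP together with LIF is known to sustain self-renewal through ID proteins, and SMAD6 and BAMBI are known to act as feedback inhibitors of the same pathway.

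Total counts ranged from 12940716 to 18434932 in 2i and from 4753528 to 13157570 with vitC, and 3 counts, taken as the floor, equaled 0.158 to 0.643 CPM, the counts scaled to the TMM-normalized library size. The summed level of 6 ES cell markers was 1276 to 1500 CPM in every library, but at 32 hr against 4 hr Pou5f1 (-0.50) and Zfp42 (-0.75) were called lower and Sox2 (1.15) and Esrrb (0.65) higher on the log2 scale. Between 4 and 32 hr the summed mesoderm markers went from 24.96 to 12.1 CPM in 2i and from 21.9 to 9.25 CPM with vitC. Of these, T (-1.18) and Eomes (-1.44) were called lower and Hand1 (0.54) was not called. The summed primitive endoderm markers went from 7.86 to 13.1 CPM in 2i and from 4.63 to 16.8 CPM with vitC. Pdgfra (1.68) and Sox17 (2.89) were called higher, and Gata4 (0.20) and Gata6 (0.31) were not called. Mixl1 and Foxa2, the remaining markers of these lists, did not pass the filter on low counts. The 4 trophoblast markers, which include Cdx2 and Eomes, summed to 15.4 and 17.8 CPM at 4 hr and to 4.82 and 3.58 CPM at 32 hr. Lars2 and 2 features that vary with it took 0.0277%, 0.206%, 5.92%, and 0.564% of counts in 2i at 4, 16, 24, and 32 hr and 0.0113%, 7.11%, 6.37%, and 4.21% with vitC. The summed level of the 6 fibroblast markers moved with time too, from 109 CPM in 2i and 93.6 CPM with vitC at 4 hr to 256 to 671 CPM later, led by Col1a1, Col1a2, and Postn, the 3 of the 6 called higher at 24 hr against 4 hr, while Lum had 0 to 4 counts in any library and Dcn 0.32 to 3.00 CPM. Libraries at 4 and 24 hr were run on lane 8 and those at 16 and 32 hr on lane 7, so that only 24 against 4 hr and 32 against 16 hr were compared within a lane. Time was tested over both treatments in an additive edgeR quasi-likelihood model with 3 residual degrees of freedom. No condition had a second culture, so the spread came from how far the 2 series depart from a common course over time. The model draws the spread of each gene toward a trend over all genes, so each error rests on other genes too. Fewer cells of a type and less RNA per cell cannot be told apart in these bulk samples.

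**Figure D1:**
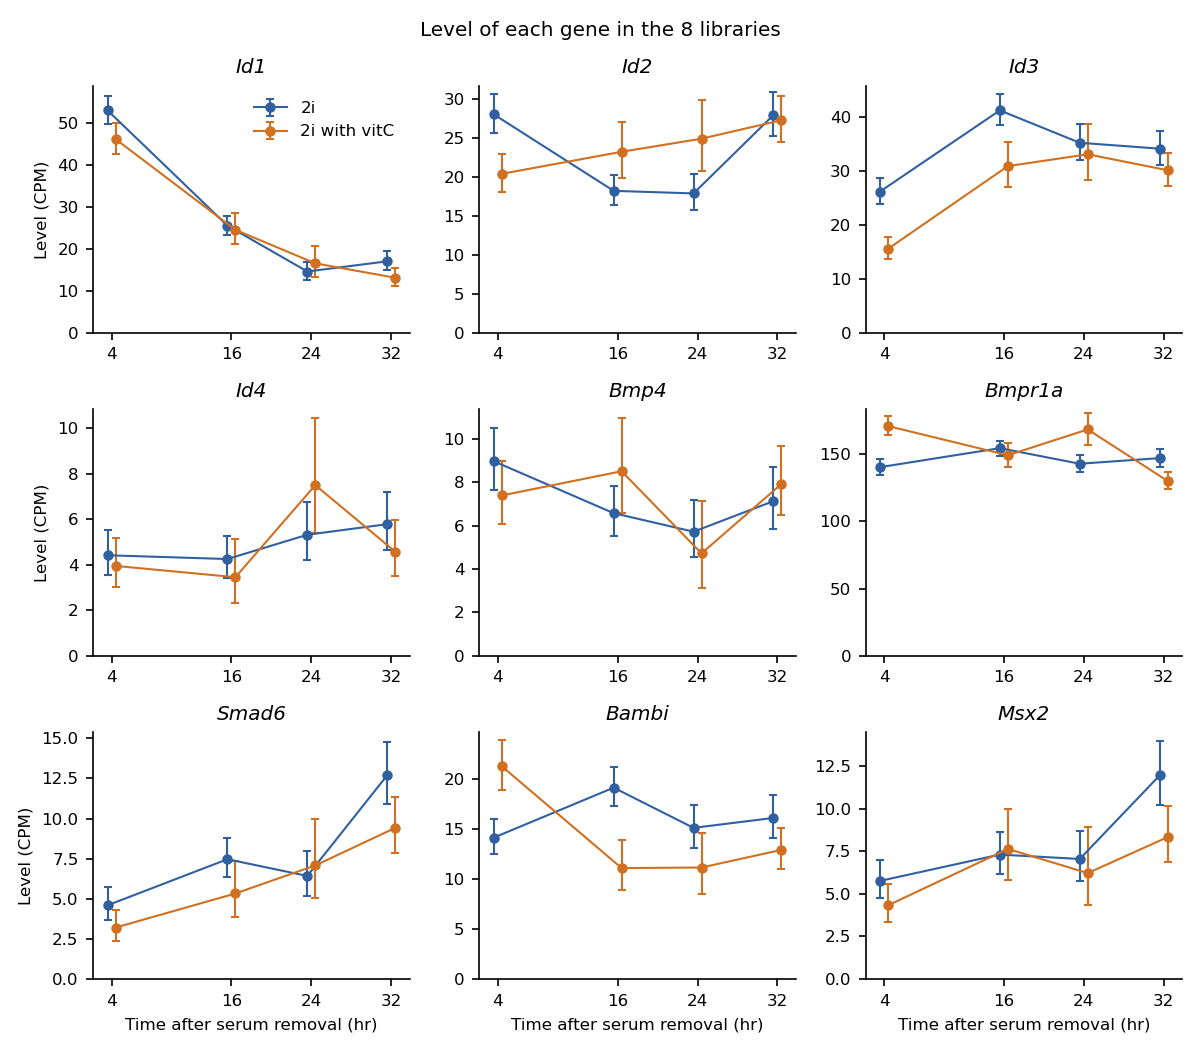
Level of each of the 9 genes (CPM, linear axes from 0) against hours after serum removal, with 1 point for each library, 2i in blue and 2i with vitC in orange. Bars are Wilson 95% confidence intervals, which cover counting error only. Id1 fell in both series from above 46 to below 18 CPM, Id3 stood lowest at 4 hr in both, and Smad6 and Msx2 stood highest at 32 hr in both.

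Of the 9 genes, Id1 was lower and Id3 higher at 24 hr than at 4 hr, and the other 7 did not pass the test (edgeR, Benjamini-Hochberg adjusted p under 0.05). Over all genes tested, 11.5% were called higher and 8.98% lower, or 20.5% in either direction, beside 22.2% of the 9. The median log2 fold change was -0.0012 over the 9 genes and 0.0076 over all genes. At 32 hr against 4 hr, Smad6 and Msx2 were also called higher, making 3 higher and 1 lower of 9 against 13.5% and 11.8% of all genes (25.3% in either direction).

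Promoter sequences of 4 of the genes are shown first, since Id3, Smad6, and Msx2 were called higher while Id2 was not. RefSeq promoter windows of GRCm38.p6 were found for 7 of the 9 genes, all but Id1 and Bambi. They were searched on both strands for GGCGCC and GGAGCC, the GC-rich sites known to be bound by SMAD1/5, and for GTCTAGAC, the palindrome known to be bound by SMAD3 and SMAD4. Each sequence reads 5′ to 3′ on the strand of the gene and covers the 250 bases before its start (for Smad6 4 more, to complete a match). Capitals mark the matches, and GGCTCC is GGAGCC read on the other strand. They are Id2 (chr12:25096093-25096342, minus strand), Id3 (chr4:136143572-136143821, plus strand), Smad6 (chr9:64022056-64022309, minus strand), and Msx2 (chr13:53472781-53473030, minus strand).
Id2: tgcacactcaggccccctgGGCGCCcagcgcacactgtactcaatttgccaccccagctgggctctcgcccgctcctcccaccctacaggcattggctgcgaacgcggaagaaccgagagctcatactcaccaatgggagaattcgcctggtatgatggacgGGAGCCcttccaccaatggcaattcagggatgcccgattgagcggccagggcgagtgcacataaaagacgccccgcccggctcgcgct
Id3: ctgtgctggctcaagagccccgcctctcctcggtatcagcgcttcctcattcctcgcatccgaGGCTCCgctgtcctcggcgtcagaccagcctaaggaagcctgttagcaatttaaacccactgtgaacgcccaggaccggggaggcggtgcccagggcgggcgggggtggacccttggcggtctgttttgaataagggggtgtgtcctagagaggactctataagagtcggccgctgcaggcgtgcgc
Smad6: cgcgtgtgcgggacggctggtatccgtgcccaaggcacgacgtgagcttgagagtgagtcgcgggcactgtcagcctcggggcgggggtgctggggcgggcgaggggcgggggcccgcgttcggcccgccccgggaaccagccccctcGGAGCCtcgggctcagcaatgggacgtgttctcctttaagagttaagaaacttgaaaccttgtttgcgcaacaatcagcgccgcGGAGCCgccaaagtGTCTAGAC
Msx2: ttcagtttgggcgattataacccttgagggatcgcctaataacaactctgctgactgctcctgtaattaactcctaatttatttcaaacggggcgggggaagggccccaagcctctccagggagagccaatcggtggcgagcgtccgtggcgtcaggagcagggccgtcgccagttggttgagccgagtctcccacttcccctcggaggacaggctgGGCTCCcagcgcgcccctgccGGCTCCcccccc

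GGAGCC occurred in 6 of the 7 windows (Bmp4, Id2, Id3, Id4, Msx2, and Smad6) and in 30.8% of the 32851 windows of the same 300 bases. GGCGCC was found in those of Bmpr1a, Id2, and Id4 and in 11.9% of all. GTCTAGAC was found in Smad6 alone, from base -4 across the start, and in 0.213% of all windows. Id2 and Id4, each with a match to both GC-rich sites, passed no test over time, and neither did Bmpr1a, with GGCGCC alone. Of the genes with GGAGCC alone, Id3 and Msx2 passed a test and Bmp4 did not. A match is a description of the letters and not a bound site.

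Id1, the inhibitor of differentiation and DNA binding most often read as an early BMP response, fell. In 2i its level was 53.0 CPM (910 counts, 95% interval 49.6 to 56.5) at 4 hr, 25.5 CPM at 16 hr, 14.6 CPM at 24 hr, and 17.0 CPM (229 counts, 14.9 to 19.3) at 32 hr. With vitC it was 46.1, 24.5, 16.5, and 13.1 CPM at the same times, on 618, 170, 77, and 157 counts. Both libraries at 4 hr lay above the other 6, and both at 16 hr lay above the 4 later ones, whereas those at 24 and 32 hr overlapped. The log2 fold change was -0.99 ± 0.19 (SE, edgeR adjusted p = 0.0054) at 16 hr, -1.69 ± 0.20 (edgeR adjusted p = 0.00025) at 24 hr, and -1.72 ± 0.19 (edgeR adjusted p = 0.00011) at 32 hr, each against 4 hr. These calls held without any single library. Within lane 7, the step from 16 to 32 hr was -0.58 (95% interval of the counts -0.81 to -0.35) in 2i and -0.90 (-1.21 to -0.59) with vitC, but -0.73 ± 0.20 with an adjusted p of 0.12 in the edgeR model. With the share of Lars2 features as a covariate, which leaves 2 residual degrees of freedom, Id1 was called at no time (log2 fold change -1.62 at 24 hr, edgeR adjusted p = 0.34). Over the 4 libraries with under 1% of such counts (2i at 4, 16, and 32 hr and vitC at 4 hr), Id1 had -1.54 at 32 hr against 4 hr. That fit had no treatment term and 1 library each at 16 and 32 hr. All its error came from the 2 libraries at 4 hr, which differ in treatment, so it cannot decide the call.

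Id3, a close relative that is also a direct SMAD1/5 target, moved the other way. Its level in 2i was 26.1, 41.2, 35.2, and 34.1 CPM at 4, 16, 24, and 32 hr, on 449 to 783 counts. With vitC it was 15.5, 30.8, 33.0, and 30.1 CPM, on 154 to 361 counts. Both 4 hr libraries were below the other 6, and the 6 later ones lay between 30.1 and 41.2 CPM. The log2 fold change against 4 hr was 0.81 ± 0.20 (SE, edgeR adjusted p = 0.017) at 16 hr, 0.73 ± 0.20 (edgeR adjusted p = 0.022) at 24 hr, and 0.65 ± 0.20 (edgeR adjusted p = 0.029) at 32 hr. All 3 calls were lost without the vitC library at 4 hr (edgeR adjusted p = 0.16, 0.22, and 0.25) and in a fit with no treatment term (edgeR adjusted p = 0.073, 0.090, and 0.11). The 24 hr call was also lost without the 2i 24 hr library (0.051) or the vitC 24 hr library (0.21), the 16 hr call without the 2i 16 hr library (0.088), and the 32 hr call without the 2i 32 hr library (0.094), the vitC 32 hr library (0.19), or with the 4 libraries low in Lars2 features alone (0.093), while the covariate for those features gave 0.82 at 24 hr (each an edgeR adjusted p).

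Id2 and Id4 passed no test. Id2 in 2i was at 28.0, 18.2, 17.9, and 27.9 CPM at 4, 16, 24, and 32 hr, a dip and a return. With vitC its 4 levels were 20.4, 23.2, 24.9, and 27.2 CPM, with no such dip. The log2 fold change at 24 hr against 4 hr was -0.64 (95% interval of the counts -0.87 to -0.42) in 2i and 0.29 (-0.026 to 0.60) with vitC, which gave -0.21 ± 0.24 in the additive model (edgeR adjusted p = 0.56). Id4, the member tied most to neural lineages, was low throughout, at 4.42, 4.26, 5.33, and 5.79 CPM in 2i and at 3.95, 3.46, 7.51, and 4.58 CPM with vitC, on 24 to 81 counts. Its counting intervals overlapped between successive times, other than from 16 hr (2.32 to 5.15 CPM) to 24 hr (5.40 to 10.4 CPM) with vitC.

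Per length, the 4 ID genes together fell from 72.9 RPKM (CPM per kilobase of exon) in 2i at 4 hr to 53.5, 40.9, and 46.6 RPKM at 16, 24, and 32 hr, and from 57.8 RPKM with vitC to 48.8, 44.8, and 40.4 RPKM. Id1 was 62.6% of it in 2i at 4 hr and 41.1%, 30.7%, and 31.4% later, and 68.8% with vitC at 4 hr and 43.3%, 31.8%, and 27.9% later. Id3 went from 20% to 48.0% at 24 hr in 2i and from 15.0% to 41.1% with vitC, so that Id3 in place of Id1 was the leading ID transcript at 24 and 32 hr in both series. These shares are a description and were not tested.

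**Figure D2:**
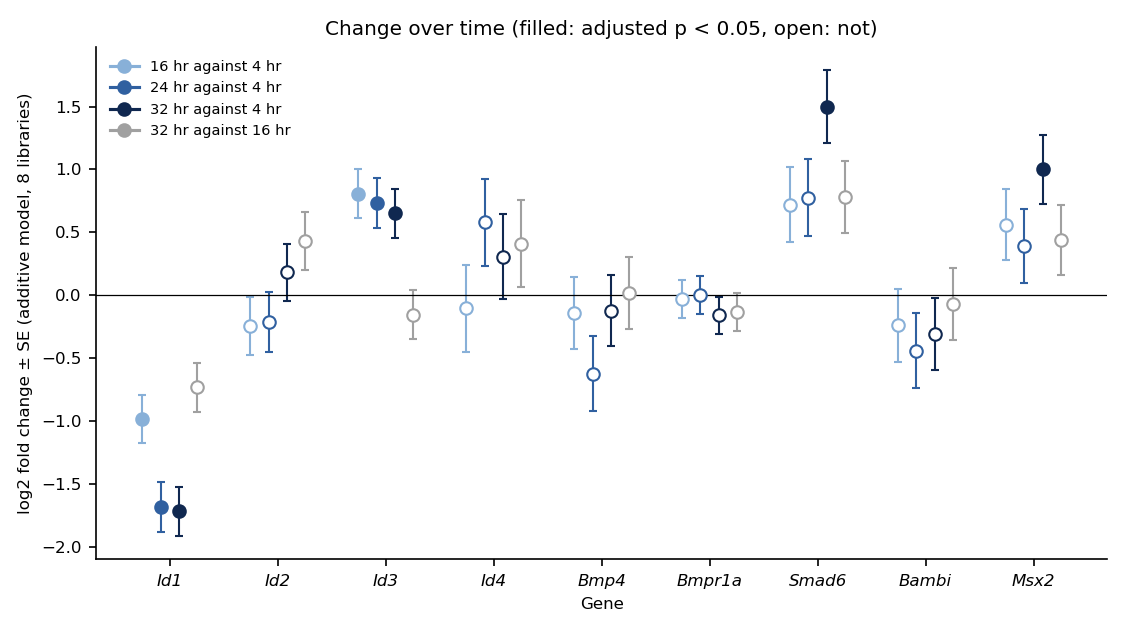
Log2 fold change ± SE of each gene over 4 time comparisons, from the additive edgeR model over the 8 libraries. Filled points have an adjusted p under 0.05 and open points do not. Id1 lies below 0 in every comparison and Id3 above 0 in all 3 against 4 hr, and Smad6 and Msx2 are filled at 32 hr against 4 hr only.

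Bmp4, the BMP ligand that ESCs are best known to make, was at 8.96, 6.57, 5.72, and 7.13 CPM in 2i and at 7.39, 8.50, 4.72, and 7.91 CPM with vitC. It was lowest at 24 hr in both series, where the log2 fold change against 4 hr was -0.62 ± 0.30 (SE) with an edgeR adjusted p of 0.16, and the vitC value there rested on 22 counts. Bmpr1a, which encodes a type I BMP receptor, was the steadiest of the 9, with 140.3, 154, 143, and 147 CPM in 2i and 171, 149, 168, and 130.0 CPM with vitC. Its highest level was 1.31 times its lowest, and its log2 fold change at 24 hr against 4 hr was -0.0012 ± 0.15 (edgeR adjusted p = 1.00).

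Smad6, an inhibitory SMAD that blocks SMAD1/5 activation, rose between 4 and 32 hr. Its window is the one above with both GGAGCC and GTCTAGAC. It was at 4.60, 7.46, 6.42, and 12.7 CPM in 2i, on 79, 142, 82, and 171 counts, and at 3.21, 5.33, 7.08, and 9.41 CPM with vitC, on 43, 37, 33, and 113 counts. Both libraries at 32 hr lay above the other 6, and both at 4 hr lay below them. The log2 fold change was 1.50 ± 0.29 (SE, edgeR adjusted p = 0.0029) at 32 hr against 4 hr, 0.77 ± 0.31 (edgeR adjusted p = 0.093) at 24 hr against 4 hr, and 0.78 ± 0.28 (edgeR adjusted p = 0.24) at 32 hr against 16 hr. The call crosses lanes, and lane and time cannot be told apart in it. It held without any single library, but not with the share of Lars2 features as a covariate (1.71, edgeR adjusted p = 0.22). Over the 4 libraries low in those features, with 1 library at 32 hr, the log2 fold change was 1.70.

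Msx2, a homeobox gene induced by BMP in many tissues, had a like course. Its levels were 5.76, 7.31, 7.05, and 11.9 CPM in 2i, on 90 to 161 counts, and 4.33, 7.64, 6.22, and 8.33 CPM with vitC, on 29 to 100 counts. The 32 hr libraries were again above the other 6, though with vitC the 16 hr level of 7.64 CPM (5.84 to 9.99) lay within counting error of that at 32 hr (6.85 to 10.1). At 32 hr against 4 hr the log2 fold change was 1.00 ± 0.28 (SE, edgeR adjusted p = 0.020), and at 24 hr it was 0.39 ± 0.29 (edgeR adjusted p = 0.37). The 32 hr call was lost without the 2i library at 4 hr (edgeR adjusted p = 0.058) or 32 hr (0.18), or the vitC library at 4 hr (0.11) or 32 hr (0.057), and with the covariate for Lars2 features (0.61). Across the 8 libraries, which share this time course, Pearson's r of the log2 levels was 0.92 for Msx2 and Smad6, 0.73 for Smad6 and Id3, and -0.77 for Smad6 and Id1, as a description.

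Bambi encodes a receptor-like protein without a kinase domain that dampens BMP and TGF-beta signals. In 2i it was at 14.1, 19.1, 15.1, and 16.1 CPM, lowest at 4 hr. With vitC it was at 21.3, 11.1, 11.2, and 12.9 CPM, highest at 4 hr, on 285, 77, 52, and 155 counts. The groups overlapped, and the log2 fold change at 24 hr against 4 hr was -0.44 ± 0.30 (SE, edgeR adjusted p = 0.32), or -0.98 (edgeR adjusted p = 0.034) without the 2i library at 4 hr.

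At 16 hr against 4 hr, Id1 and Id3 were the genes called among the 9, beside 9.16% higher and 7.24% lower of all genes (16.4% in either direction). At 32 hr against 16 hr none of the 9 was called by edgeR or by DESeq2, and 2 (Id1 and Smad6) had an unadjusted p under 0.05, where 0.335% of all genes were called higher and 0.248% lower (0.583% in either direction). With a correction for GC content and length the split of all genes called at 24 hr against 4 hr moved from 1720 higher and 1341 lower to 1412 higher and 1710 lower, and the calls on Id1 and Id3 stayed.

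Per length and averaged over the 8 libraries, the order of the 9 genes was Bmpr1a at 23.7 RPKM, Id1 at 22.7, Id3 at 17.2, Id2 at 9.62, Bmp4 at 3.16, Bambi at 2.98, Msx2 at 2.23, Smad6 at 2.19, and Id4 at 1.28 RPKM. Only between Id2 (7.32 to 11.5 RPKM) and Bmp4 (2.10 to 3.99 RPKM) did the ranges of neighbors in this order not overlap. Id1 had the widest range, from 11.3 to 45.6 RPKM, and so stood above Bmpr1a at 4 hr and below it later in both series.

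Genes most like the ID genes were sought by Pearson's r, over the 8 libraries, with the mean centered log2 level of Id1, Id2, and Id3, among 10458 protein-coding genes of at least 5 CPM. They were Atp9b (r = 0.957), a member of the P4-ATPase family, Tbc1d23 (0.926), a Golgi trafficking factor, Tceal9 (0.921), Spast (0.920), which severs microtubules, and Ssu72 (0.917), a phosphatase of RNA polymerase II. Id1 itself had an r of 0.77 with that mean, Id2 of 0.36, and Id3 of -0.12, so the 3 ID genes did not share a profile that the mean could stand for. Atp9b spanned 49.6 to 65.9 CPM, far less than Id1.

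Beyond the 9 genes, 58 others were listed by their role in the pathway, of which 44 passed the filter on low counts. At 24 hr against 4 hr, 10 of the 44 were called higher (22.7%) and 3 lower (6.82%), beside the 11.5% and 8.98% of all genes, with a median log2 fold change of 0.41. At 32 hr against 4 hr, 11 were higher (25%) and 5 lower (11.4%), beside 13.5% and 11.8% of all genes. At 16 hr against 4 hr 9 were higher (20.5%) and 3 lower (6.82%), beside 9.16% and 7.24%. At 32 hr against 16 hr Tcf12 was higher and Cdx2 lower (2.27% each), beside 0.335% and 0.248% of all genes. Both of these calls were lost with no treatment term and without any 1 library at 16, 24, or 32 hr. That of Cdx2 was also lost without the vitC 4 hr library and with the covariate for Lars2 features. The vitC libraries at 4 and 24 hr weighed heavily on the 24 hr count, since without either of them Bmp7, Smad7, and Ski alone were called. With the covariate for Lars2 features 0 were called by edgeR, and 1 had an unadjusted p under 0.05. With the correction for GC content and length, 8 were higher and 5 lower at 24 hr against 4 hr, with a median of 0.24. At 32 hr against 4 hr it gave 8 higher and 6 lower, with a median of 0.13. The calls over all genes moved toward lower under that correction too.

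**Figure D3:**
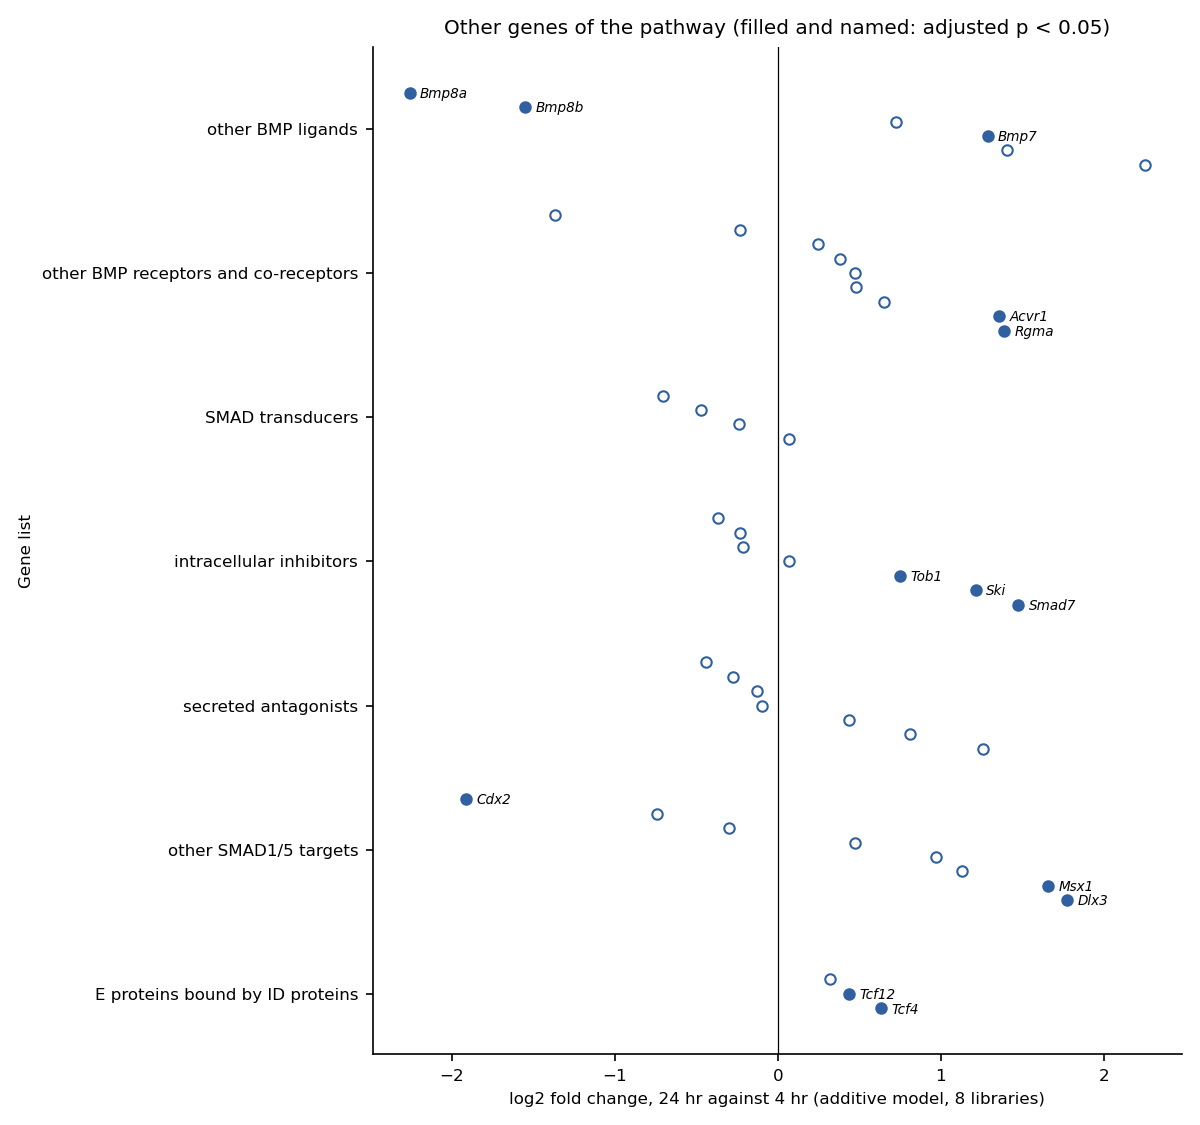
Log2 fold change at 24 hr against 4 hr of the 44 other pathway genes that passed the filter, in 7 lists, from the additive edgeR model over the 8 libraries. Filled and named points have an adjusted p under 0.05. The 3 genes called lower are Bmp8a, Bmp8b, and Cdx2, and 3 of the 7 intracellular inhibitors are called higher, beside 11.5% of all genes.

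Among the other BMP ligands, 1 of the 6 tested was higher and 2 were lower at 24 hr, beside 11.5% and 8.98% of all genes. Bmp7, the most abundant of them, stood at 10.0, 22.2, 22.0, and 33.5 CPM in 2i and at 8.88, 31.8, 24.4, and 28.2 CPM with vitC, and rose by 1.29 ± 0.23 on the log2 scale (SE, edgeR adjusted p = 0.0027). Bmp8a (-2.26 ± 0.62, edgeR adjusted p = 0.023) and Bmp8b (-1.55 ± 0.39, edgeR adjusted p = 0.016), close paralogs between which reads may be split, fell, and both are named for being the ones that did, after their values were seen. Bmp8a had as few as 2 counts, in the vitC library at 24 hr. Each of these 2 calls was lost without any 1 of the 4 libraries at 4 or 24 hr.

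Of 9 other receptors and co-receptors, 2 were higher and none lower at 24 hr, beside 11.5% and 8.98% of all genes. Acvr1, a type I receptor, went from 2.85 to 7.05 CPM in 2i and from 5.07 to 13.5 CPM with vitC (1.36 ± 0.28, edgeR adjusted p = 0.0060). Rgma, a co-receptor of the repulsive guidance family, went from 6.46 to 10.7 CPM and from 7.54 to 31.1 CPM (1.39 ± 0.31, edgeR adjusted p = 0.0091), but its relative Rgmb, the most abundant of the list, had a log2 fold change of -0.23 ± 0.19. None of the 4 SMAD transducers passed at 24 hr, beside 20.5% of all genes called in either direction. Smad4, the shared partner and the most abundant, was at 77.4 to 118 CPM (-0.47 ± 0.16, edgeR adjusted p = 0.056). By 32 hr 1 of the 4 was lower than at 4 hr, beside 11.8% of all genes. It was Smad5 (-0.60 ± 0.14, edgeR adjusted p = 0.0092), named after its value was seen. Smad5 was at 71.9, 63.8, 65.0, and 47.6 CPM in 2i and at 89.2, 67.4, 71.0, and 58.8 CPM with vitC. That call was lost without the 2i 32 hr, vitC 4 hr, or vitC 32 hr library and with the covariate for Lars2 features.

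The intracellular inhibitors held 3 higher and none lower of 7 at 24 hr against 4 hr, beside 11.5% and 8.98% of all genes. At 16 hr against 4 hr the same 3 were higher and 1 lower (Smurf1, -0.60 ± 0.16, edgeR adjusted p = 0.023), beside 9.16% and 7.24% of all genes. At 32 hr against 4 hr they were again higher and 1 lower (Ppm1a, -0.44 ± 0.13, edgeR adjusted p = 0.026), beside 13.5% and 11.8% of all genes. Smurf1, a ubiquitin ligase of SMADs, and Ppm1a, a SMAD phosphatase, are named after their values were seen, and each call was lost without any 1 of the 4 libraries at its 2 times. Smad7, the second inhibitory SMAD, was at 21.3, 38.2, 40.5, and 35.4 CPM in 2i and 13.1, 34.3, 57.3, and 49.2 CPM with vitC, with both 4 hr libraries below the other 6 (1.47 ± 0.26, edgeR adjusted p = 0.0024). It was also called at 16 hr against 4 hr (1.07 ± 0.25, edgeR adjusted p = 0.016), though not without the 2i 16 hr or the vitC 4 hr library, where Smad6 had 0.72 ± 0.30 (edgeR adjusted p = 0.12), and the difference between the genes was not tested. Ski, a corepressor that binds SMADs, rose by 1.21 ± 0.19 (edgeR adjusted p = 0.0014), and Tob1, which restrains BMP responses in bone, by 0.75 ± 0.20 (edgeR adjusted p = 0.020). The 24 hr call of Tob1 was lost with no treatment term and without the 2i 24 hr, vitC 4 hr, or vitC 24 hr library. Its log2 fold change ran from 0.038 to 1.13 over the alternatives. At 16 and 32 hr against 4 hr the calls of both Ski and Tob1 were lost with no treatment term and without the vitC 4 hr library, among other fits. Skil, a relative of Ski and the most abundant of the list, was at 176 to 262 CPM and passed no test.

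Secreted antagonists showed no call at 24 hr (0 of 7 tested, and 12 listed), beside 20.5% of all genes called in either direction. Twsg1, the most abundant, stayed between 67.4 and 85.9 CPM. By 32 hr 1 of the 7 was higher than at 4 hr, beside 13.5% of all genes. It was Nog (0.83 ± 0.25, edgeR adjusted p = 0.031), the ligand trap Noggin, named after its value was seen. The Nog call was lost without any 1 of the 4 libraries at 4 or 32 hr. The other SMAD1/5 targets went both ways at 24 hr, with 2 of 8 higher and 1 lower, beside 11.5% and 8.98% of all genes. Msx1, a relative of Msx2, was at 2.73, 9.78, 7.20, and 5.79 CPM in 2i and 1.27, 8.36, 5.36, and 4.92 CPM with vitC (1.66 ± 0.35, edgeR adjusted p = 0.0068), highest at 16 hr in both series where Msx2 was highest at 32 hr. The 24 hr call of Msx1 was lost without the 2i 24 hr, vitC 4 hr, or vitC 24 hr library, and its log2 fold change ran from 0.74 to 2.15 over the alternatives. Dlx3, another homeobox gene, was at 3.03, 5.73, 5.56, and 4.16 CPM in 2i and 1.79, 13.5, 13.3, and 4.25 CPM with vitC (1.77 ± 0.46, edgeR adjusted p = 0.018), and was not called without the vitC library at 4 hr (1.06, edgeR adjusted p = 0.20) or 24 hr (1.29, edgeR adjusted p = 0.20). Cdx2, a trophoblast regulator that is also in the trophoblast marker list and is named after its value was seen, fell by 1.91 ± 0.37 (edgeR adjusted p = 0.0042), from 8.90 to 3.13 CPM in 2i and from 10.97 to 1.93 CPM with vitC. Dusp9, the most abundant target and a phosphatase of ERK, was at 185 to 272 CPM and passed no test.

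E proteins, the partners that ID proteins hold, had 2 of 3 higher at 24 hr, beside 11.5% of all genes. Tcf4 had a log2 fold change of 0.63 ± 0.16 (edgeR adjusted p = 0.016) and Tcf12 of 0.44 ± 0.14 (edgeR adjusted p = 0.039). The Tcf12 call was lost with no filter on low counts, with no treatment term, and without any 1 library at 4, 24, or 32 hr. That of Tcf4 was lost with no treatment term and without the vitC 4 hr or the vitC 24 hr library. Neither was called with the correction for GC content and length. Tcf12 kept climbing, from 64.3 to 122 CPM in 2i and from 64.6 to 114 CPM with vitC between 4 and 32 hr (0.88 ± 0.13, edgeR adjusted p = 0.00077). Tcf3, the most abundant, rose by 0.58 ± 0.14 (edgeR adjusted p = 0.011) at 32 hr against 4 hr, but by 0.31 (edgeR adjusted p = 0.13) with that correction, and was not called without the 2i 32 hr or the vitC 4 hr library (edgeR adjusted p = 0.14 and 0.11). The part that the markers of other cell types and the Lars2 features, which moved over the same hours, have in these results was not tested beyond the fits given.

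VitC, a cofactor of iron-dependent dioxygenases such as the TET enzymes, was compared with 2i alone over the 4 times, each time serving as its own block. None of the 9 genes was called by edgeR or by DESeq2, and 1 (Id3) had an unadjusted p under 0.05. Of all genes 0.107% were called higher and 0.0603% lower (0.167% in either direction), so few calls were made anywhere. The median log2 difference, vitC less 2i, was -0.13 over the 9 genes and -0.015 over all genes. Id3 was lower with vitC at all 4 times, by -0.75 (95% interval of the counts -0.98 to -0.51) at 4 hr, -0.41 (-0.63 to -0.20) at 16 hr, -0.090 (-0.35 to 0.17) at 24 hr, and -0.18 (-0.38 to 0.019) at 32 hr, and by -0.36 ± 0.14 (SE) in the model, with an edgeR adjusted p of 0.27.

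**Figure D4:**
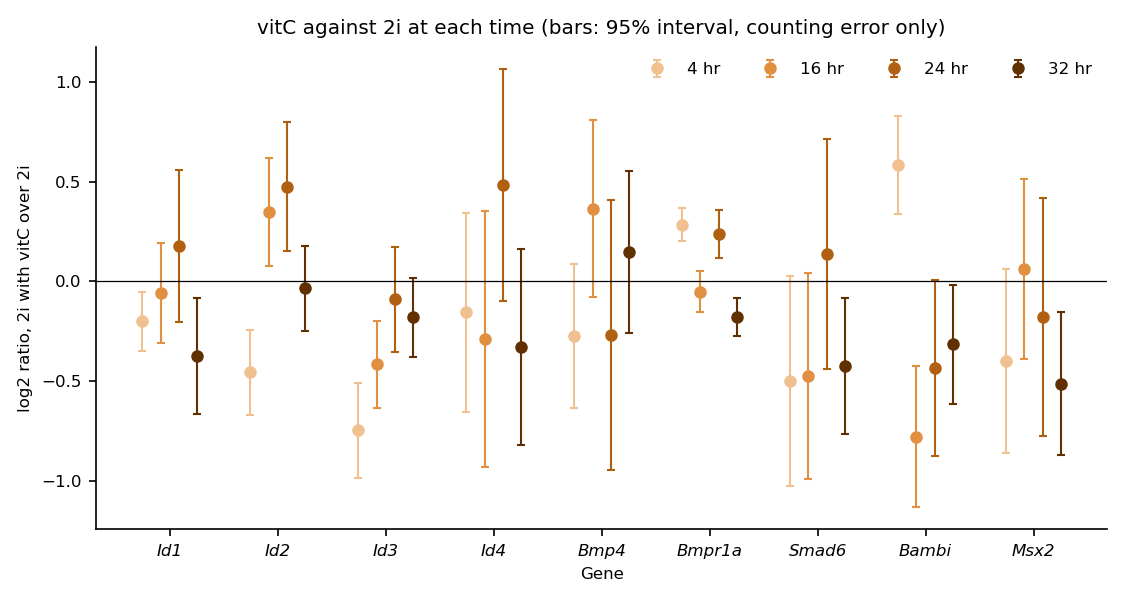
Log2 ratio of the library with vitC to that in 2i alone for each gene at 4, 16, 24, and 32 hr, darker with time. Bars are 95% intervals that cover counting error only. Id3 lies below 0 at all 4 times, and Bambi lies above 0 at 4 hr and below 0 at the other 3.

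At 4 hr alone, the library with vitC was lower in Id1 (-0.20, -0.35 to -0.052) and Id2 (-0.46, -0.67 to -0.24) as well, and higher in Bambi (0.58, 0.34 to 0.83) and Bmpr1a (0.28, 0.20 to 0.37). These intervals compare 2 libraries and hold no error between cultures. At later hours the sign differed for Id1 at 24 hr (0.18, -0.20 to 0.56) and for Id2 (0.35 at 16 hr and 0.47 at 24 hr). It also differed for Bambi (-0.78, -0.43, and -0.32 at 16, 24, and 32 hr). For Bmpr1a it differed at 16 hr (-0.050, -0.15 to 0.052) and 32 hr (-0.18) but not at 24 hr (0.24, 0.12 to 0.36). Smad6 had -0.50 (-1.02 to 0.026), -0.47 (-0.99 to 0.041), and -0.42 (-0.76 to -0.085) at 4, 16, and 32 hr, and 0.14 (-0.44 to 0.71) at 24 hr. Msx2 had -0.40 (-0.86 to 0.060), -0.18 (-0.77 to 0.42), and -0.51 (-0.87 to -0.16) at 4, 24, and 32 hr, and 0.062 (-0.39 to 0.51) at 16 hr. For both, the interval lay below 0 at 32 hr only. The model values were -0.34 ± 0.21 for Smad6 and -0.27 ± 0.20 for Msx2 (edgeR adjusted p = 0.51 and 0.59). Bmp4 had a model value of 0.0034 ± 0.21 and Id4 of -0.081 ± 0.25.

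Whether the vitC difference changed with hours was tested as a slope, with 2 residual degrees of freedom. It was called for none of the 9 genes and for 0% of all genes by edgeR, with 0 of the 9 and 431 of all genes at an unadjusted p under 0.05 and 1 gene of all called by DESeq2. The steepest slope among the 9 was that of Bambi, -0.031 ± 0.019 log2 units per hr (edgeR adjusted p = 1.00). Of the 44 other pathway genes none was called between vitC and 2i by edgeR, 7 had an unadjusted p under 0.05, and 3 (Acvr1, Ski, and Rgma) were called higher by DESeq2. Acvr1 had the edgeR value 0.89 (adjusted p = 0.069) and Rgma 0.90 (adjusted p = 0.088). On the other side Bmp2 was as near to the threshold, at -0.80 (edgeR adjusted p = 0.090). With no filter on low counts Acvr1, Ski, and Rgma were called higher by edgeR and Bmp2 lower.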

How the data were processed

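Raw read counts per Ensembl gene, deposited by the authors without normalization, were used for 8 libraries. Per the labels and the study's methods, 50-base single-end reads of ribosomal RNA-depleted RNA had been aligned with GSNAP and counted with HTSeq, and the submitters' processing notes name NCBIM37 (mm9). The annotation release, the strand setting, and the treatment of reads with several matches are not given in the sources used here, so reads of a gene and an antisense neighbor cannot be told apart. Symbols, merged exon lengths, and GC content came from GENCODE M21 (32604 of 37263 identifiers matched), and promoter windows from RefSeq. Groups came from the labels and lanes from the deposited files' names.

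Genes that reached 1 CPM in 2 or more libraries were tested with edgeR 4.0.16 (R 4.3.3, TMM, quasi-likelihood, Benjamini-Hochberg adjustment over 14931 genes, threshold 0.05), time in an additive model with treatment and vitC with time as a block. Alternatives were DESeq2 1.42.0, other size factors, no filter, no treatment term, Lars2 features removed or as a covariate, a correction for GC content and length, and each library left out. A fit on the 4 libraries low in Lars2 features was chosen after seeing the data. It had no treatment term and 1 library each at 16 and 32 hr. On simulated counts for 24 hr against 4 hr, with 100 genes changed 2-fold and 100 changed 4-fold, 87% and 100% of the changes were recovered. There were 9 false calls over 14931 genes. In the data 3061 genes were called, so the simulated setting differs from them and does not give the error of the real calls. Ratios of single libraries used a prior count of 2, and the intervals (95%) and floors leave out all but counting error, as the reads carry no identifiers of single molecules. The genes and lists were chosen with earlier results of these data known. Named were the 9 genes and, per list, the most abundant gene and up to 3 called at 24 hr with the largest change and a mean of at least 5 CPM. Other genes named were chosen after their values were seen.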

Additional observations from a re-analysis of the deposited data

Results flagged for a closer look

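Bmpr1a and Bambi moved in opposite directions in the 2 series between 4 and 16 hr. Bmpr1a changed by 0.14 on the log2 scale (95% interval of the counts 0.061 to 0.22) in 2i and by -0.20 (-0.30 to -0.090) with vitC. Bambi changed by 0.43 (0.20 to 0.67) in 2i and by -0.93 (-1.29 to -0.57) with vitC. Each value rests on 1 library per time and treatment, and this difference between the series was not tested at 16 hr. The slope of the vitC difference with hours, the nearest test, gave an edgeR adjusted p of 1.00 for both genes.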

How the results depend on the processing

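The counts of genes called depended on the model. For 32 against 16 hr, vitC against 2i, and the change of the vitC difference with hours, DESeq2 called 239, 299, and 1 genes and no filter on low counts gave 589, 690, and 5, beside 87, 25, and 0. With neither a treatment term nor a time block, 1889 genes were called at 24 hr and 1289 at 16 hr against 4 hr, 11 at 32 against 16 hr, and 0 for vitC (739 at an unadjusted p under 0.05). With the share of Lars2 features as a covariate the counts were 0 (1415 unadjusted), 73, and 158 at 24, 16, and 32 hr against 4 hr, and 4 for vitC. For vitC, 60 were called with the Lars2 features removed and 13 with the correction for GC content and length. That correction also turned the split of calls at 16 hr to 1136 higher and 1423 lower and at 32 hr to 1657 and 1963, each against 4 hr, from 1367 and 1081 and from 2021 and 1763. Leaving out 1 library gave 752 to 3356 genes at 24 hr, 540 to 2062 at 16 hr, and 1401 to 4090 at 32 hr against 4 hr, 2 to 137 at 32 against 16 hr, 0 to 415 for vitC, and 1 to 23 for its change with hours. The lowest counts at 24, 16, and 32 hr against 4 hr came without the vitC 24 hr, vitC 4 hr, and 2i 32 hr libraries, and the highest for vitC came without the 2i 4 hr library. Each such fit assumes that the lone library left at a time varies like the others. The cause of these moves was not tested.

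No called value among the 9 genes changed direction in any alternative run. Values that were not called and did change sign were, with the Lars2 covariate, at 24 hr against 4 hr Bmpr1a (0.56) and Bambi (1.11), at 16 hr against 4 hr Id4 (0.28), Bmpr1a (0.37), and Bambi (0.81), at 32 against 16 hr Bmp4 (-0.031) and Bambi (0.047), at 32 hr against 4 hr Id2 (-0.29), Bmpr1a (0.26), and Bambi (0.86), and for vitC Id2 (-0.064), Id4 (0.030), Bmp4 (-0.19), and Bambi (0.084). Bmpr1a at 24 hr against 4 hr was 0.0014 with DESeq2, 0.0015 with RLE factors, and 0.0089 with upper-quartile factors. Bmp4 for vitC was -0.00058 with upper-quartile factors and -0.0013 with no filter. With the correction for GC content and length, Bmp4 was -0.068 and Bambi 0.027 at 32 against 16 hr. In the 4 libraries low in Lars2 features, Id4 was 0.012 and Bambi 0.11 at 16 hr against 4 hr. With no filter Id1 was called at 32 against 16 hr (-0.73, edgeR adjusted p = 0.038).

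Leaving out 1 library moved across 0, at 24 hr against 4 hr, Id2 (-0.55 to 0.17), Bmpr1a (-0.14 to 0.13), and Bambi (-0.98 to 0.12). At 16 hr against 4 hr it did so for Id2 (-0.58 to 0.13), Bmp4 (-0.37 to 0.13), Bmpr1a (-0.17 to 0.11), Bambi (-0.78 to 0.32), and Id4 (-0.26 to 0.015). At 32 against 16 hr the ranges were -0.24 to 0.26 for Bmp4, -0.39 to 0.37 for Bambi, and -0.31 to 0.034 for Bmpr1a. At 32 hr against 4 hr they were -0.31 to 0.078 for Bmp4, -0.14 to 0.57 for Id2, -0.82 to 0.28 for Bambi, and -0.33 to 0.011 for Bmpr1a. For vitC they were -0.055 to 0.26 for Id2, -0.12 to 0.12 for Bmp4, and -0.26 to 0.017 for Id4. No fit with a replicate number as a block was run, since the labels give none. The 2 libraries of a time were paired by that time alone.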
